A study of Mus musculus with 10 samples.

Results

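A set of 10 genes of chondrocytes and of the cartilage they lay down was followed through RNA-seq of regenerating mouse digit tips. The genes are Sox9, Col2a1, Col9a1, Col10a1, Acan, Hapln1, Matn3, Comp, Ihh and Pth1r. They were taken as a set by gene symbol, with earlier results of these data known, and all 10 were found among the 21729 genes of the deposited protein-coding table. The tissue was the blastema, the mound of proliferating cells that builds up on an amputated digit tip before the missing bone, nail and skin are replaced. Libraries came from wild type mice and from mice of the genotype ΔLARM1/2, which lack enhancers through which the homeobox gene Lmx1b is switched on in the limb. Blastemas were collected at 12 days post amputation (dpa), when the mice were 33 days old, and at 14 dpa, when they were 35 days old. On each day 2 libraries were wild type and 3 were mutant, 10 in all, and each came from 6 pooled central digits of the hindlimb. Both genotypes had a mixed CD1 and C57Bl/6 background. What the labels do not say is whether the replicates came from separate mice, so p-values describe the spread between these libraries, which may in part be technical. The comparisons address whether the mutant samples, called blastemas after their label, differed from the wild type ones on either day.

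Chondrocytes are the cells of cartilage. Under the transcription factor SOX9 and its partners SOX5 and SOX6 they secrete a matrix of type II, IX and XI collagen fibrils, filled with the proteoglycan aggrecan, which link proteins tie to hyaluronan. In a growth plate, chondrocytes that stop dividing make Indian hedgehog (Ihh), which acts with parathyroid hormone-related protein and its receptor Pth1r to time hypertrophy, and hypertrophic chondrocytes make type X collagen. The bone of a regenerating mouse digit tip is known to form mainly by direct ossification, without a cartilage model. Several of these genes are also used outside cartilage: Sox9 in hair follicles and glands, Acan and Comp in tendon, and Pth1r in osteoblasts.

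Library size ran from 69998104 to 101632364 expected counts. Lmx1b, the gene whose enhancers were deleted, measured 2.68 and 2.94 CPM (expected counts scaled by library size) in the wild type libraries at 12 dpa and 2.14 and 1.69 CPM at 14 dpa. The mutants measured 0.0788, 0.336 and 0.168 CPM at 12 dpa and 0.234, 0.0696 and 0.0278 CPM at 14 dpa, so the genotypes did not overlap. Averaged over both days, Lmx1b fell by 3.98 ± 0.49 on the log2 scale (SE, as after every log2 change below) in the mutants, with an adjusted p of 0.000406 in edgeR's quasi-likelihood test. At 14 dpa the log2 change was -4.11, and -5.19 without mutant replicate 1 of that day. At 12 dpa the log2 change was -3.86, and -4.48 without mutant replicate 2. A wild type genotype tag is attached to mutant 14 dpa replicate 1 and goes against its title and description. Its Lmx1b level of 0.234 CPM lay below that of every wild type library, and it was kept as mutant. With this library placed among the wild types, no cartilage gene passed the test in any genotype comparison, and no gene of the 20216 tested did. Under that placement 3957 of all tested genes had an unadjusted p under 0.05 at 12 dpa, 1748 did at 14 dpa, and 5448 did for the average of the days. DESeq2 was not run under it. The log2 fold changes at 12 dpa were as before, and for the average of the days those of the 8 genes otherwise called ran from -7.53 (Col10a1) to -1.3 (Pth1r). At 14 dpa Col2a1 stood at -6.47, Hapln1 at -2.01 and Matn3 at -1.59 on the log2 scale. Taken as folds rather than log2 values, these falls were each over 1.5 times smaller than those given for that day below.

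The level of each gene relative to the others was read from TPM, the deposited unit that is scaled by gene length as well as library size. In wild type blastemas at 12 dpa, Sox9 was the highest with a mean of 45.4 TPM. It was followed by Acan with 16.2 TPM, Pth1r with 10.2 TPM and Col10a1 with 7.04 TPM. Hapln1, Comp and Matn3 had means of 3.83, 2.30 and 1.78 TPM. Col9a1, Col2a1 and Ihh stood at 0.290, 0.280 and 0.165 TPM, all under 1 TPM. The ranges over the libraries of neighbours did not overlap from Sox9 down to Matn3, except that Comp, with 1.53 and 3.07 TPM, spanned the 1.65 and 1.92 TPM of Matn3. Col9a1, at 0.290 TPM in both libraries, lay within the 0.210 and 0.350 TPM of Col2a1. In the wild type at 14 dpa Col10a1 stood second with a mean of 13.5 TPM and Col2a1 reached 0.920 TPM.

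In the mutants the order was different below the top. Sox9 stayed first with means of 48.7 TPM at 12 dpa and 35.5 TPM at 14 dpa, Acan second with 5.69 and 2.62 TPM, and Pth1r next with 3.48 and 2.33 TPM. Col10a1 was the lowest of the 10 genes at 12 dpa, with a mean of 0.00333 TPM. TPM of the wild type 14 dpa libraries are scaled differently from the rest, because protein-coding genes took 27.7% and 33.6% of their TPM and 42.0% to 52.8% of it elsewhere. Levels were therefore compared between genes within a library in TPM, and the level of a gene was compared between libraries in CPM.

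**Figure D1:**
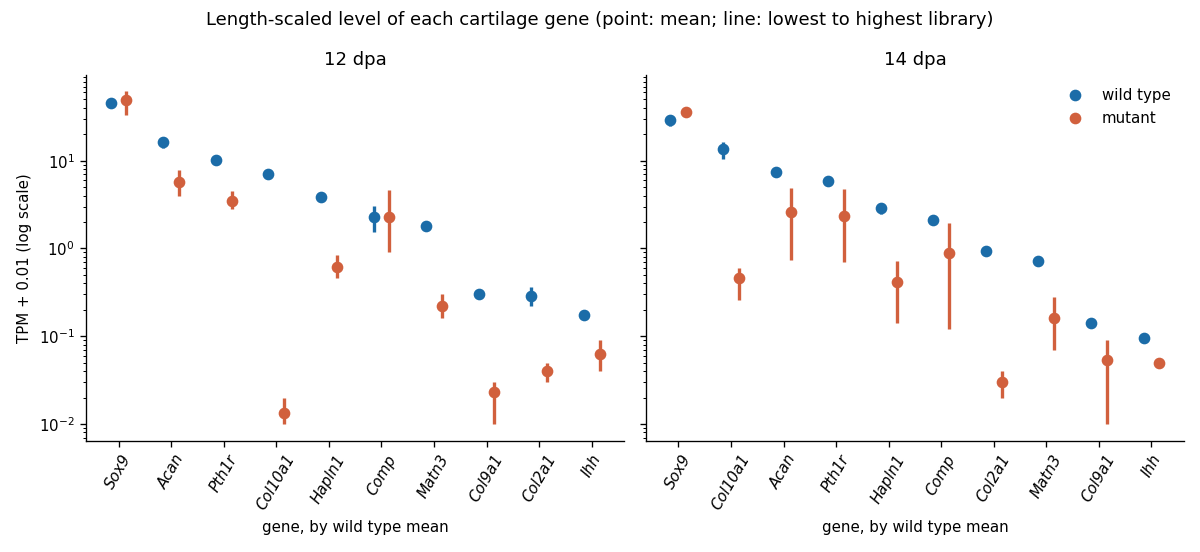
Level of each cartilage gene in TPM + 0.01 on a log scale, for wild type (blue) and mutant (orange) libraries at 12 dpa (left) and 14 dpa (right). Points are group means and vertical lines run from the lowest to the highest library, with genes ordered by the wild type mean. Sox9 is the highest gene in all 4 groups, and at 12 dpa Col10a1, at 7.04 TPM, stands above Hapln1 in the wild type and is the lowest of the 10 in the mutants.

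The label of a chondrocyte set was checked against the genes that define the cell type. Col2a1, the main collagen of cartilage, stayed under 1 TPM in all 10 libraries. In the wild type 14 dpa libraries, where it was highest, the different scaling of TPM makes this value too low beside the rest. In CPM, Col2a1 ran from 1.16 to 6.74 in the wild type. Of 15 listed cartilage matrix proteins found in the files, 3 had no counts in any wild type library at 12 dpa (Matn1, Ucma and Cytl1) and 4 had none at 14 dpa (the same and Epyc), while the list as a whole summed to 182 to 309 CPM in the wild type. Matn1 and Ucma are close to restricted to cartilage; Matn1 had a mean of 0.0112 CPM in the mutants at 12 dpa. The 5 further cartilage collagens summed to 166 to 286 CPM in the wild type. Col10a1 exceeded Col2a1 in every wild type library, with TPM ratios of 22.5 and 29.6 at 12 dpa and of 18.6 and 11 at 14 dpa. The wild type blastemas thus held little RNA of the defining cartilage collagen, and the set is described below as 10 genes rather than as a measure of chondrocytes. The length that the deposited files assign to Col2a1 varied from 654 to 4862 bases between libraries, which makes its TPM less certain than its count.

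Of the 10 cartilage genes 8 fell in the mutants when the genotype difference was averaged over both days, none rose, and Sox9 and Comp did not pass the test. The threshold was an adjusted p of 0.05 in edgeR's quasi-likelihood test, adjusted over all tested genes by the Benjamini-Hochberg method. By that rule 22.2% of all tested genes were lower and 21.5% were higher in the mutants. The median log2 fold change of the 10 genes was -2.43, beside 0.02 over all tested genes. No cartilage gene was higher even at an unadjusted p under 0.05, and DESeq2 and limma-trend on log2(TPM + 0.1) also called 8 lower and 0 higher. In these bulk samples, fewer cells of a type and less of an RNA per cell cannot be told apart.

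On single days the counts were smaller. At 12 dpa 6 genes fell (Col2a1, Col9a1, Col10a1, Matn3, Ihh and Hapln1), where 9.34% of all tested genes were lower, and the median of the 10 was -2.75 beside 0.03. At 14 dpa 5 fell (the same genes without Col9a1), where 17.2% of all genes were lower, and the median was -1.78 beside 0.00. None rose on either day, also at an unadjusted p under 0.05 in edgeR or in DESeq2, while 7.18% and 16.1% of all tested genes were higher. Every mutant library lay below every wild type library of its day for 8 of the 10 genes at 12 dpa and for 9 at 14 dpa. The same separation held for 26.0% and 31.6% of all tested genes. For 8 of the 10 it held on both days, against 19.3% of all tested genes. Without wild type replicate 1 at 14 dpa, the number that passed there was 3.

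**Figure D2:**
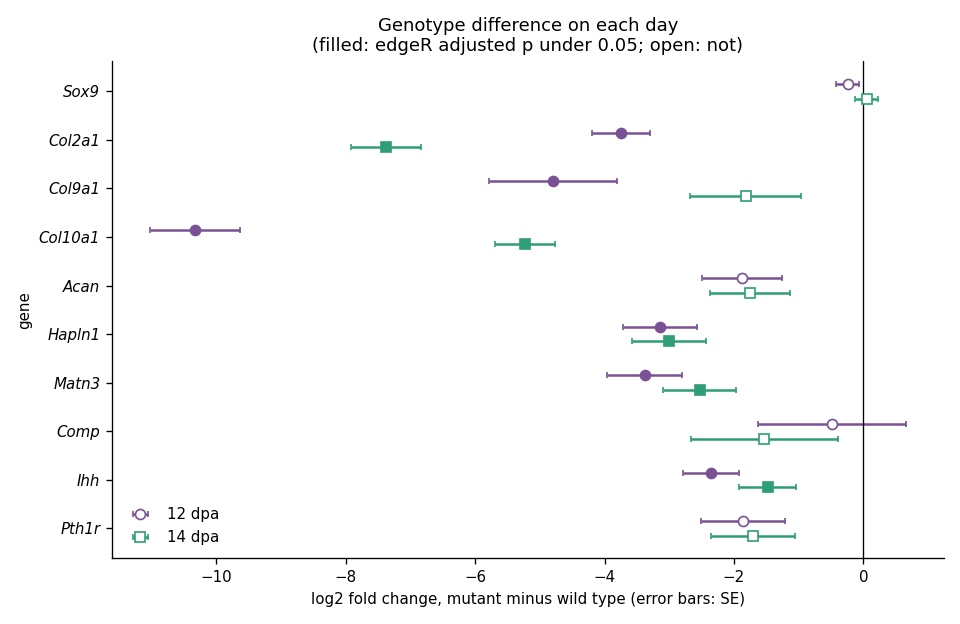
Log2 fold change of each cartilage gene, mutant minus wild type, at 12 dpa (circles) and 14 dpa (squares), with bars of 1 SE; filled symbols have an edgeR adjusted p under 0.05. Sox9 lies at -0.24 and 0.05 beside the zero line, and Col10a1 lies farthest from it at 12 dpa with -10.33.

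Sox9 (ENSMUSG00000000567), the transcription factor that starts and maintains the chondrocyte programme, was the regulator in the set. It measured 261 and 207 CPM in the wild type and 150, 208 and 235 CPM in the mutants at 12 dpa. At 14 dpa it measured 187 and 190 CPM in the wild type and 190, 199 and 196 CPM in the mutants. The genotypes overlapped on both days, and the 5 libraries of 14 dpa lay close together. The log2 fold change over both days was -0.10 ± 0.13 (SE; 95% interval -0.38 to 0.19; edgeR adjusted p 0.557). Its sign was not fixed: on the TPM scale, log2(TPM + 0.1), the difference was 0.18 with an adjusted p of 0.403 in limma, where the median over all genes was 0.26.

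Acan, a known target of SOX9, did not keep its ratio to Sox9. The ratio of Sox9 to Acan in TPM was 3.43 and 2.32 in the wild type at 12 dpa and 3.36 and 4.49 at 14 dpa. In the mutants it was 6.24, 13.0 and 7.85 at 12 dpa and 50.1, 7.44 and 15 at 14 dpa, above every wild type library. The ratio restates the separate levels of both genes. The share of all genes whose ratio to Sox9 separated in this way was not counted. Whether both RNAs came from the same cells was not tested.

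Col2a1 (ENSMUSG00000022483) encodes the chain of type II collagen, the main fibril of cartilage. Wild type libraries held 2.25 and 1.16 CPM at 12 dpa and 6.74 and 4.44 CPM at 14 dpa. The mutants held 0.180, 0.116 and 0.0783 CPM at 12 dpa and 0.0130, 0.0398 and 0.0416 CPM at 14 dpa. The mutant values at 14 dpa rest on 1, 4 and 3 counts, and those of the wild type on 462 and 430. All 6 mutant libraries lay below all 4 wild type libraries. Col2a1 fell by 5.57 ± 0.35 on the log2 scale over both days (adjusted p 2.01e-05, edgeR), or 47.4-fold. Its log2 fold change was -3.75 ± 0.45 at 12 dpa and -7.38 ± 0.54 at 14 dpa.

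Col9a1 (ENSMUSG00000026147) encodes a chain of type IX collagen, which coats the type II fibril. It measured 1.19 and 1.03 CPM in the wild type at 12 dpa and 0.744 and 0.557 CPM at 14 dpa. The mutants at 12 dpa measured 0.0676, 0 and 0.0448 CPM, from 6, 0 and 4 counts. At 14 dpa they were far apart, with 0.0130, 0.318 and 0.208 CPM. Mutants were lower than wild types on both days, but the spread at 14 dpa was wide. The log2 fold change was -3.31 ± 0.65 over both days (adjusted p 0.00366, edgeR) and -4.80 ± 0.99 at 12 dpa (adjusted p 0.0137). At 14 dpa the log2 fold change of -1.82 ± 0.86 did not pass (adjusted p 0.127), and it was -2.55 without mutant replicate 2 of that day. The call at 12 dpa was lost without wild type replicate 1 (adjusted p 0.0502) or replicate 2 (adjusted p 0.0606), and without mutant replicate 1 of that day the log2 change was -5.46.

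Col10a1 (ENSMUSG00000039462) encodes type X collagen, the marker of hypertrophic chondrocytes, and showed the largest difference of the 10 genes over both days. Wild type libraries held 31.9 and 22.2 CPM at 12 dpa and 91.8 and 44.9 CPM at 14 dpa. The mutants at 12 dpa held 0.0450, 0.0129 and 0 CPM, which are 4, 1 and 0 counts beside 2344 and 1629 counts in the wild type. At 14 dpa the mutants held 1.99, 1.03 and 2.48 CPM, from 153, 104 and 179 counts. The transcript was thus near zero in the mutants at 12 dpa and present at a low level 2 days later. The log2 fold change was -7.78 ± 0.42 over both days (adjusted p 2.26e-05, edgeR), -10.33 ± 0.70 at 12 dpa and -5.23 ± 0.47 at 14 dpa. The estimate at 12 dpa rests on 5 mutant counts and therefore on the prior count: it was -11.80 without mutant replicate 1 and -9.73 without mutant replicate 3 of that day. Over both days it was -8.53 without mutant 12 dpa replicate 1, and at 14 dpa it was -4.62 without wild type replicate 1. Nt5dc1, a gene on the opposite strand that overlaps Col10a1, measured 17.3 to 38 CPM, and was 0.45 ± 0.08 higher on the log2 scale in the mutants (adjusted p 0.00252).

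The promoter of Col10a1, the 250 bases before its start in RefSeq's mouse build GRCm38.p6 (chr10:34389731-34389980, plus strand), is shown because this gene fell most over both days. Capitals mark a SOX motif (ACAAAG), a homeodomain core (TAATTA) and a TATA box (TATAAA).
Col10a1: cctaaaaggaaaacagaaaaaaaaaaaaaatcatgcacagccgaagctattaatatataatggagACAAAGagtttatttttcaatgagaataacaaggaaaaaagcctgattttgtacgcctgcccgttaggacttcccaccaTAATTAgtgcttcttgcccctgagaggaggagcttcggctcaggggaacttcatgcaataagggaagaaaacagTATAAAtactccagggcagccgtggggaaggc
The SOX motif lies 185 to 180 bases, the homeodomain core 106 to 101 bases and the TATA box 32 to 27 bases before the start. Promoters of 7 of the 10 genes were matched by symbol in the RefSeq table, and those of Col2a1, Sox9 and Comp were not. The 7 genes had 10 promoters in all, and a gene was counted if any of its promoters held the motif. Shares of the whole table are per promoter and not per gene. Motifs were searched on both strands and no match overlapped another. ACAAAG was found in 2 of the 7, Col10a1 and Pth1r, and in 16.5% of the 32851 promoters of the table. TAATTA and TATAAA were each found in Col10a1 alone, and in 4.84% and 12.4% of all promoters. A further SOX motif, ACAATG, was in none of the 7 and in 10.7% of all. These matches describe letters and not bound sites.

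Acan (ENSMUSG00000030607) encodes aggrecan, the large proteoglycan that holds water in cartilage. It measured 128 and 148 CPM in the wild type at 12 dpa and 93.4 and 72.1 CPM at 14 dpa. The mutants measured 39.1, 25.6 and 49.0 CPM at 12 dpa and 6.94, 45.1 and 21.8 CPM at 14 dpa. The genotypes did not overlap on either day, and mutant replicate 1 at 14 dpa was the lowest of all 10 libraries. Acan fell by 1.81 ± 0.44 over both days (adjusted p 0.0123, edgeR), or 3.50-fold. On single days the log2 fold changes of -1.87 ± 0.62 (adjusted p 0.0761) and -1.75 ± 0.62 (adjusted p 0.0629) did not pass. DESeq2 called Acan lower on both days, and edgeR did at 12 dpa without mutant 14 dpa replicate 1 or 2 and at 14 dpa without mutant replicate 2 of that day. The lowest adjusted p among the fits without 1 library was 0.0124 for 12 dpa and 0.0129 for 14 dpa, and the log2 change for 14 dpa then ranged from -2.52 to -1.30.

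Hapln1 (ENSMUSG00000021613) encodes the link protein that fastens aggrecan to hyaluronan. Wild type libraries held 29.8 and 25.5 CPM at 12 dpa and 25.6 and 25.4 CPM at 14 dpa. The mutants held 3.30, 2.16 and 3.94 CPM at 12 dpa and 0.938, 5.54 and 3.07 CPM at 14 dpa. The 4 wild type libraries stood within a narrow range, well above every mutant. Hapln1 fell by 3.07 ± 0.40 over both days (adjusted p 0.000798, edgeR), or 8.40-fold, with log2 fold changes of -3.14 ± 0.57 at 12 dpa and -3.0 ± 0.57 at 14 dpa. Without wild type replicate 2 of 12 dpa the call of that day was lost (adjusted p 0.0526), and without mutant replicate 2 of 14 dpa the log2 change of that day was -3.67. A processed pseudogene, Gm8546, overlaps Hapln1 on the opposite strand.

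Hapln1 and Acan, whose proteins bind in one complex, did not keep 1 ratio. The ratio of Acan to Hapln1 in TPM was 3.59 and 4.90 in the wild type at 12 dpa and 2.99 and 2.27 at 14 dpa. In the mutants it was 10.2, 8.73 and 9.36 at 12 dpa and 5.54, 6.82 and 6.05 at 14 dpa, above every wild type library. How often other gene pairs separated in this way was not counted.

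The promoter of Hapln1 (chr13:89540386-89540635, plus strand, GRCm38.p6, from RefSeq) is printed for contrast with Col10a1. Capitals mark a RUNX motif (TGTGGT), 160 to 155 bases before the start.
Hapln1: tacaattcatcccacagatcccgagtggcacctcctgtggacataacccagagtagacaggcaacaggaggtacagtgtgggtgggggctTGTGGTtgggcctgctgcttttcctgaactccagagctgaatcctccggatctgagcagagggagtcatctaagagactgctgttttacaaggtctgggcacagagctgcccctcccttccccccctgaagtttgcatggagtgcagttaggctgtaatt
This motif was found for 1 of the 7 genes with a matched promoter and in 14.0% of all promoters of the table.

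Matn3 (ENSMUSG00000020583), matrilin 3, is an adaptor protein that joins collagen fibrils and proteoglycans. It measured 6.42 and 6.59 CPM in the wild type at 12 dpa and 4.27 and 2.54 CPM at 14 dpa. The mutants measured 0.923, 0.543 and 0.403 CPM at 12 dpa and 0.208, 1.05 and 0.486 CPM at 14 dpa. No mutant library reached the lowest wild type one. The log2 fold change of Matn3 was -2.95 ± 0.40 over both days (adjusted p 0.000726, edgeR), -3.38 ± 0.58 at 12 dpa and -2.53 ± 0.57 at 14 dpa. The call at 14 dpa was lost without wild type replicate 1 (adjusted p 0.0726), and the log2 change there was -3.29 without mutant replicate 2.

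Comp (ENSMUSG00000031849), cartilage oligomeric matrix protein, is made by cartilage and tendon. It measured 9.01 and 4.11 CPM in the wild type and 3.58, 1.96 and 8.57 CPM in the mutants at 12 dpa, and the groups overlapped. At 14 dpa the wild type values were 8.81 and 5.88 CPM, and those of the mutants 0.117, 5.70 and 1.78 CPM. Mutants were lower at 14 dpa, but replicate 2 came close to the lower wild type library. The log2 fold change over both days was -1.0 ± 0.80 (95% interval -2.86 to 0.85; edgeR adjusted p 0.342). Without mutant 14 dpa replicate 2 it was -1.72. At 12 dpa it was -0.48, and it ran from -1.23 without mutant replicate 3 to 0.20 without wild type replicate 1 of that day. At 14 dpa it was -1.53, and -2.96 without mutant replicate 2. The interval leaves room for a fall as large as that of Acan.

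Ihh (ENSMUSG00000006538), the hedgehog ligand of prehypertrophic chondrocytes, was the lowest of the 10 genes in the wild type. At 12 dpa 39 and 32 counts were found in wild type libraries, and 11, 6 and 7 in mutant ones. At 14 dpa wild type libraries had 24 and 26 counts and every mutant library had 9. In CPM the wild types held 0.531 and 0.435 at 12 dpa and 0.350 and 0.268 at 14 dpa, and the mutants held 0.0775 to 0.124 and 0.0895 to 0.125. Mutant libraries were lower on both days, at counts that sampling alone can move widely. The log2 fold change of Ihh was -1.91 ± 0.31 over both days (adjusted p 0.00132, edgeR), -2.35 ± 0.43 at 12 dpa and -1.48 ± 0.44 at 14 dpa (adjusted p 0.0289). The call at 14 dpa was lost without any 1 of the 5 libraries of that day, with adjusted p between 0.0549 and 0.147. It was also lost in a fit of the 14 dpa groups alone (adjusted p 0.0624) and on log2(TPM + 0.1) in limma (adjusted p 0.150).

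Pth1r (ENSMUSG00000032492), the receptor for parathyroid hormone and its related protein, is made by chondrocytes and by osteoblasts. It measured 25 and 27.9 CPM in the wild type at 12 dpa and 23.7 and 15.7 CPM at 14 dpa. The mutants measured 7.39, 5.85 and 8.66 CPM at 12 dpa and 1.60, 12.0 and 4.34 CPM at 14 dpa. The groups were apart on both days, by the smaller margin at 14 dpa. Pth1r fell by 1.78 ± 0.46 over both days (adjusted p 0.0148, edgeR), or 3.44-fold. Without wild type 14 dpa replicate 1 it no longer passed (adjusted p 0.0548). The log2 fold changes of -1.86 ± 0.65 at 12 dpa (adjusted p 0.0851) and -1.71 ± 0.65 at 14 dpa (adjusted p 0.0741) did not pass. DESeq2 called both, and so did edgeR for 12 dpa without mutant 14 dpa replicate 1 or 2 and for 14 dpa without mutant replicate 2 (lowest adjusted p 0.0157 and 0.00530; log2 change at 14 dpa of -2.73 to -1.26). Myl3, which overlaps Pth1r on the opposite strand, had 19 counts in the 4 wild type and 5 in the 6 mutant libraries together.

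Pth1r has several starts in the RefSeq table, and the promoter of the start farthest upstream (chr9:110747146-110747395, minus strand, GRCm38.p6) is printed because it alone of the Pth1r promoters holds a searched motif. Capitals mark the SOX motif ACAAAG, 38 to 33 bases before the start.
Pth1r: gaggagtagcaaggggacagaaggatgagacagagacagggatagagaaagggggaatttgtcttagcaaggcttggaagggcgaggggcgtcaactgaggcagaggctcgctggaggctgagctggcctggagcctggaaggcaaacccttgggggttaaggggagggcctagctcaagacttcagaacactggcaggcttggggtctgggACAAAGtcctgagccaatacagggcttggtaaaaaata

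**Figure D3:**
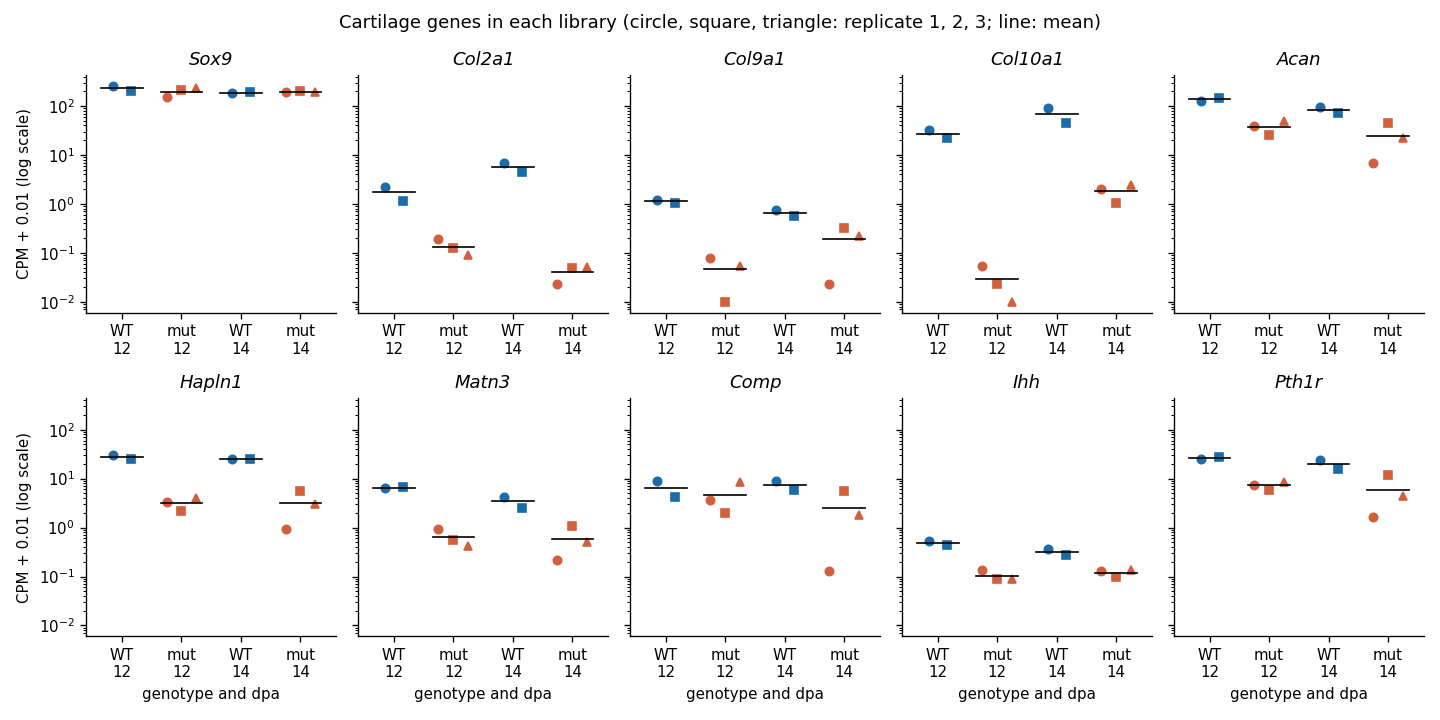
CPM + 0.01 of each cartilage gene on a shared log scale in wild type (WT, blue) and mutant (mut, orange) libraries at 12 and 14 dpa. Symbols are single libraries (circle, square and triangle for replicates 1, 2 and 3) and lines are group means. Sox9 stays between 150 and 261 CPM in all libraries, while Col10a1 spans 0 to 91.8 CPM.

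The change between the days was compared within each genotype. In the wild type no cartilage gene passed the test, and neither did any of the 20216 genes in edgeR (0% called), with 1654 at an unadjusted p under 0.05. Col2a1 and Col10a1 were the cartilage genes with an unadjusted p under 0.05. Their log2 changes from 12 to 14 dpa were 1.71 ± 0.45 (p 0.00365, adjusted p 0.533) and 1.34 ± 0.47 (p 0.0207, adjusted p 0.578). That of Col10a1 was 0.73 without wild type 14 dpa replicate 1. DESeq2 called none of the 10, and limma on log2(TPM + 1) called Col2a1, higher by 0.59. Both 14 dpa libraries lay above both 12 dpa libraries for Col2a1 and Col10a1 and below them for 6 of the 10, where 20.1% and 22.4% of all tested genes did so.

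In the mutants Col10a1 rose from 12 to 14 dpa by 6.44 ± 0.71 on the log2 scale (adjusted p 0.0426, edgeR). It was 1 of 3 genes, 0.0148% of those tested, that were higher. The rise goes from 5 counts to 436 counts over 3 libraries each. The call was lost without any 1 of 6 libraries, namely both wild type libraries and mutant replicates 2 and 3 of 12 dpa and mutant replicates 1 and 3 of 14 dpa. The adjusted p over the 10 such fits ran from 0.0291 to 0.189, and the log2 change was 5.84 without mutant 12 dpa replicate 3 and 7.90 without replicate 1. A fit of the mutant groups alone gave an adjusted p of 0.110. Col2a1 had a log2 change of -1.92 ± 0.55 in the mutants (adjusted p 0.133), which DESeq2 called.

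Whether the genotype difference itself differed between the days was tested as an interaction. No cartilage gene passed in edgeR, where 0 of 20216 genes did and 1763 had an unadjusted p under 0.05. The largest departures were those of Col10a1, whose genotype difference was 5.10 ± 0.93 higher at 14 dpa (p 0.000462, adjusted p 0.544), and Col2a1, whose difference was 3.63 ± 0.71 lower on the log2 scale, a value of -3.63 (p 0.000497, adjusted p 0.544). The value for Col10a1 was 6.54 without mutant 12 dpa replicate 1 and 4.47 without replicate 3 of that group. DESeq2 called both, with 5.21 (adjusted p 1.84e-05) and -3.69 (adjusted p 0.00807). The 2 tools thus differed on whether the type X and type II collagen differences changed between days.

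The rest of the cartilage programme was read from 8 lists with 97 genes found in the files, of which 88 could be tested, for the average of both days. Of these 35 fell and 12 rose, beside 22.2% lower and 21.5% higher among all genes. Among cartilage collagens, 4 of 5 fell and none rose at an unadjusted p under 0.05 in edgeR. Col9a2, the partner chain of Col9a1, fell by 3.66 ± 0.41 (adjusted p 0.000270) and Col11a1, a chain of type XI collagen, by 2.29 ± 0.41 (adjusted p 0.00347). In the list of hypertrophy and cartilage calcification 8 of 10 fell and none passed upwards, and its median was -1.74. On single days fewer of its genes passed, with 1 lower at 12 dpa and 3 lower at 14 dpa. Of all tested genes 9.34% and 17.2% were lower on those days. Mutant 12 dpa replicate 3 summed to 509 CPM over the list, between the 556 and 499 CPM of the wild type libraries of that day. Mutant replicates 1 and 2 of 12 dpa summed to 203 and 135 CPM. Vegfa, the vessel growth factor, fell by 0.95 ± 0.16 and Slc20a1, a phosphate transporter, by 0.64 ± 0.13. That list is shared with osteoblasts, which also use Ibsp, Spp1, Alpl and Sp7.

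Other roles were mixed. Chondrogenic transcription factors split into 5 that fell and 3 that rose of 9 tested. Trps1 and Runx2 fell by 0.61 ± 0.09 and 1.40 ± 0.27, while Barx2 and Zfp219 were higher by 0.85 ± 0.08 and 0.68 ± 0.10. Of the SOX9 partners, Sox6 rose by 0.92 ± 0.19 (adjusted p 0.00407, edgeR), and Sox5 stood at -0.05 ± 0.35 (adjusted p 0.922), from group means of 0.504 to 0.818 CPM. Among 10 tested matrix proteins 2 fell and 1 rose: Hapln3, a relative of Hapln1, fell by 1.72 ± 0.38, Fmod, fibromodulin, by 1.26 ± 0.43 (adjusted p 0.0440), and Scrg1 rose by 1.98 ± 0.30. The call of Fmod was lost without any 1 of 8 libraries (all but mutant 12 dpa replicate 3 and mutant 14 dpa replicate 2), at adjusted p of 0.0544 to 0.121.

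Among 16 genes that build and sulphate proteoglycan chains 7 fell and 2 rose. Papss2, which makes the sulphate donor, fell by 0.98 ± 0.11, and Chsy3, a chondroitin synthase, by 1.64 ± 0.19, while the sulphate transporter Slc26a2 and the sulphotransferase Chst3 rose by 0.46 ± 0.11 and 0.56 ± 0.15. Growth receptors and modulators gave 4 lower and 2 higher of 13. Frzb, a secreted Wnt antagonist, fell by 3.47 ± 0.40 and Npr2, the receptor for C-type natriuretic peptide, by 1.03 ± 0.22, and Fgfr3 and the growth hormone receptor Ghr rose by 1.13 ± 0.11 and 0.47 ± 0.08. Matrix breakdown genes gave 3 lower and 1 higher of 10, with Mmp14 lower by a log2 change of -0.87 ± 0.15, the aggrecanase Adamts4 at -1.70 ± 0.31 and the hyaluronan receptor Cd44 at 0.40 ± 0.12. The call of Cd44 was lost without wild type 12 dpa replicate 2 or wild type 14 dpa replicate 1, the highest adjusted p being 0.0995.

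The loop that joins Ihh to Pth1r was tested in 15 genes, of which 2 fell and 3 rose, with a median of -0.04. Pthlh, the ligand of Pth1r, had a log2 fold change of -0.13 ± 0.30 (adjusted p 0.754, edgeR). The hedgehog receptor and target Ptch1 stood at -0.25 ± 0.13 (adjusted p 0.142) and the target Gli1 at -0.44 ± 0.23 (adjusted p 0.145). Without mutant 12 dpa replicate 2 both were called lower (adjusted p 0.0160 and 0.0417), and on log2(TPM + 0.1) Ptch1 and Pthlh were at 0.05 and 0.07. Hhip, a decoy receptor and hedgehog target, fell by 1.71 ± 0.16 (adjusted p 0.000123). Gli3 fell by 0.48 ± 0.11, a call lost on log2(TPM + 0.1) (adjusted p 0.350), and Gli2 and the coreceptor Boc rose by 0.66 ± 0.16 and 0.36 ± 0.09. The 3 targets Ptch1, Gli1 and Hhip thus had changes of -0.25 ± 0.13, -0.44 ± 0.23 and -1.71 ± 0.16, beside -1.91 ± 0.31 for Ihh. Whether these changes differ from each other was not tested.

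**Figure D4:**
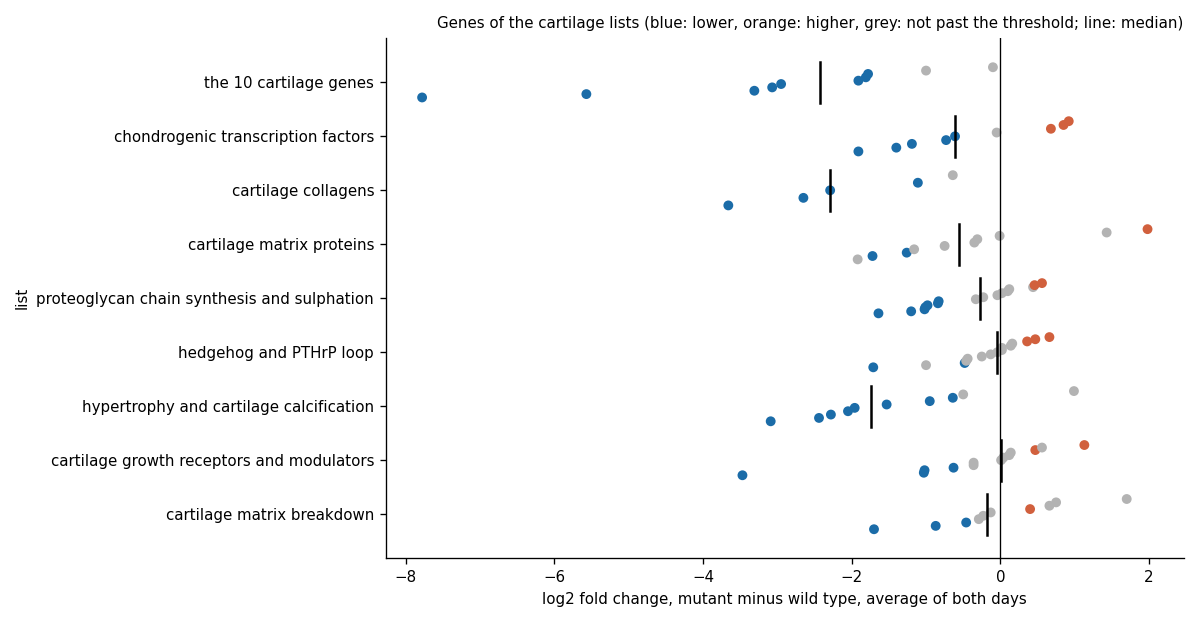
Log2 fold change of each tested gene, mutant minus wild type averaged over both days, by list; blue points fell, orange points rose, grey points did not pass the threshold, and black lines are list medians. The 10 cartilage genes (median -2.43), the cartilage collagens (-2.29) and the hypertrophy list (-1.74) lie to the left of zero, while the hedgehog and parathyroid hormone-related protein (PTHrP) loop has a median of -0.04.

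Markers of osteoblasts, fibroblasts, tendon and endothelium more often fell than rose in the mutants, and epithelial markers more often rose. Counts are for the average of both days, where 22.2% of all tested genes were lower and 21.5% higher. Among osteoblast and osteocyte markers 6 of 11 fell and 1 rose. On single days fewer passed: 1 was lower at 12 dpa, and 2 were lower and 2 higher at 14 dpa. Of all tested genes 9.34% were lower at 12 dpa, and 17.2% were lower and 16.1% higher at 14 dpa. Their summed level was 6750 to 12500 CPM in the wild type and 1550 to 5290 CPM in the mutants, most of it Col1a1, which fell by 1.67 ± 0.36. Dlx5 was higher by 0.33 ± 0.11, a call lost without any 1 of 5 libraries (both of wild type 12 dpa, mutant 12 dpa replicates 2 and 3, and wild type 14 dpa replicate 1; adjusted p up to 0.126). Blastema fibroblast markers, the check of the labelled tissue, fell in 9 of 10, and summed to 4850 to 13300 CPM in the wild type and 136 to 481 CPM in the mutants. Lrrc15 made up most of that sum and fell by 6.23 ± 0.31, and Mest fell by 3.01 ± 0.30. By these markers the mutant samples were unlike the wild type blastemas, and the name blastema is used for them only as a label.

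Tendon markers fell in 4 of 6, from 30.4 to 37.4 CPM in sum in the wild type to 7.38 to 34.2 CPM in the mutants. On single days 0 of the 6 passed at 12 dpa and 1 at 14 dpa, as lower. Tnmd fell by 1.53 ± 0.41 and Scx by 1.16 ± 0.32, the latter not called without wild type 12 dpa replicate 2 or wild type 14 dpa replicate 1 (adjusted p up to 0.0715). All 6 endothelial markers fell, Cdh5 by 2.12 ± 0.14 and Pecam1 by 1.77 ± 0.17, and their sum was 161 to 207 CPM against 34.5 to 67.6 CPM. Keratinocyte markers went the other way: 6 of 7 rose, with Krt5 higher by 1.32 ± 0.13 and Epcam by 1.23 ± 0.12, and their sum was 28700 to 51000 CPM against 50600 to 116000 CPM. In hair follicle and gland epithelium, where Sox9 is also made, 4 of 9 tested markers rose and 1 fell, and the sum was 669 to 1370 CPM against 1450 to 2890 CPM. Krt17 and Trpv6 rose by 1.01 ± 0.17 and 1.10 ± 0.19, and reads of keratins can be split among similar family members. Lhx2 fell by 1.04 ± 0.27, a call lost without the same pair of wild type libraries as that of Scx (adjusted p up to 0.0608). Foxi1 had no counts in the mutants at 12 dpa, and no other marker of these 6 lists was at 0 throughout a group. The part of these cell types in the values of the cartilage genes was not tested.

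**Figure D5:**
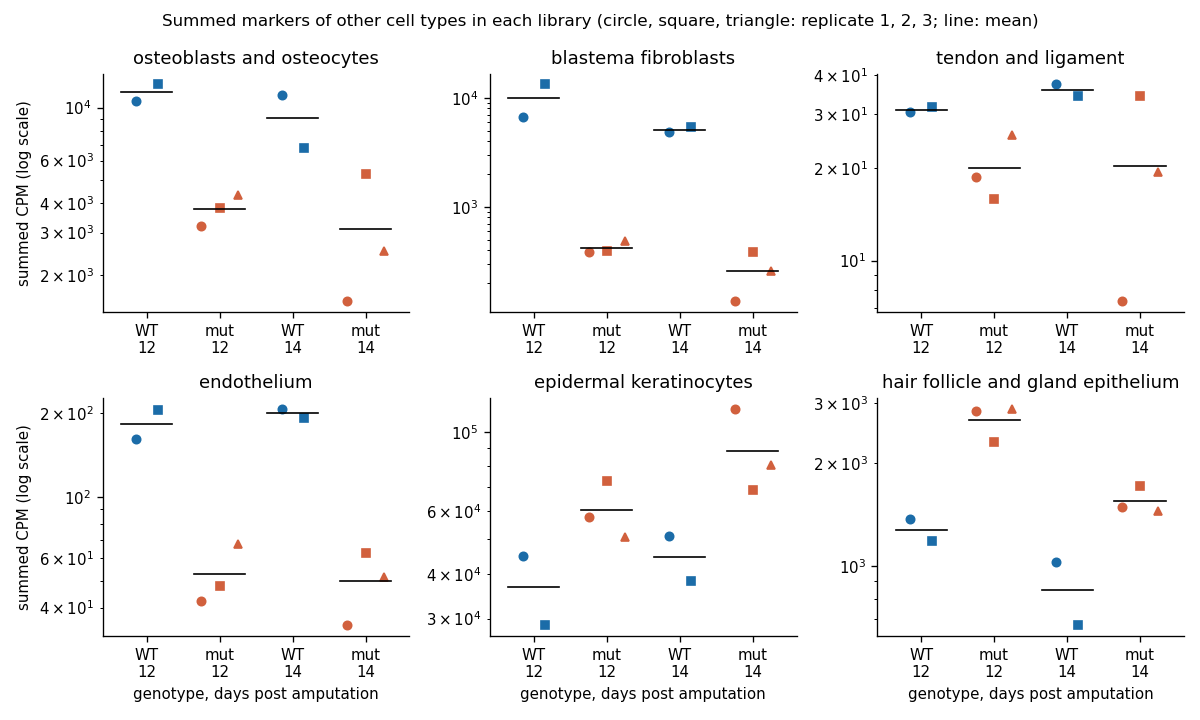
Summed CPM of the markers of 6 other cell types on log scales in wild type (WT, blue) and mutant (mut, orange) libraries at 12 and 14 dpa; symbols are single libraries (circle, square and triangle for replicates 1, 2 and 3) and lines are group means. Fibroblast sums reach 481 CPM at most in mutants and 4850 CPM at least in the wild type, and keratinocyte sums are highest in mutant 14 dpa replicate 1 at 116000 CPM.

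Mutant libraries of 14 dpa differed among themselves in a fixed order for most cartilage genes. For 7 of the 10, replicate 1 was lowest and replicate 2 highest, and replicate 1 was the lowest of all 10 libraries for 6. Sox9 is among the 7 although its values of 190, 199 and 196 CPM hardly differed. The share of all tested genes in this order was not counted, so the order is not read as particular to these genes. Acan gives an example, with 6.94, 45.1 and 21.8 CPM in replicates 1, 2 and 3. The same order was seen in the summed markers of osteoblasts (1550, 5290 and 2510 CPM), tendon (7.38, 34.2 and 19.4 CPM), fibroblasts (136, 383 and 259 CPM) and endothelium (34.5, 63.0 and 51.4 CPM). Keratinocyte sums stood in the opposite order, at 116000, 68900 and 80500 CPM. Col2a1, Col10a1 and Ihh did not follow it: Col2a1 was highest in replicate 3, on 1 to 4 counts, Col10a1 was lowest in replicate 2 (1.03 CPM), and Ihh had 9 counts in each. Whether tissue makeup accounts for the order was not tested.

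Genes with the pattern most like that of Col2a1, Sox9 and Pth1r were found among 11425 protein-coding genes with a mean of at least 1 TPM. Likeness was the root mean square difference of log2(TPM + 0.1) over the 10 libraries, each gene centred on its mean. For Col2a1 the nearest were Apod, Rgs5 and Tspan12, at 0.56, 0.58 and 0.60. Their log2 fold changes over both days in edgeR were -1.84, -2.11 and -2.46, beside -5.57 for Col2a1. Mutant libraries held 0.01 to 0.04 TPM of Col2a1, below the added 0.1, so this scale shrinks its genotype difference. The likeness of these genes to Col2a1 therefore does not extend to the size of its fall. For Sox9 the nearest were Tirap, Unc119b and Dnajc1 at 0.10, 0.11 and 0.11. For Pth1r they were Col13a1, Col1a2 and Col1a1 at 0.18, 0.19 and 0.19, the last 2 being the chains of type I collagen. Libraries share their depth and makeup across genes, so these distances are a description. They use TPM across libraries, including the wild type 14 dpa ones that are scaled differently.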

How the data were processed

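RNA-seq of 10 blastema libraries in 4 genotype-by-day groups was used, grouped by title; titles and descriptions number the wild type 14 dpa pair in opposite order, and titles were used. The labels' protocols name column extraction and a stranded total RNA kit. FastQC, STAR 2.7.8a and RSEM 1.3.0 are listed without roles in the submitters' processing notes, as is build GRCm39; no source used here says whether counting used strand. Reads of a gene and an overlapping gene on the other strand may therefore be mixed for Col10a1, Hapln1 and Pth1r; these overlaps were read from a GENCODE M21 table. The deposited expected counts, in RSEM's column layout per the file headers, are not normalized by the authors, and 13.9% were not whole. The deposited TPM values are scaled by length and to a fixed total by the authors, and the protein-coding TPM table matched the library files. The FPKM values deposited by the authors were not used.

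Expected counts were rounded and fitted in edgeR 4.0.16 (R 4.3.3, limma 3.58.1) with TMM factors, filterByExpr (minimum count 10, minimum total 15), 4 group means over all 10 libraries and robust quasi-likelihood dispersions. Of 55416 genes 20216 were tested, all 10 cartilage genes among them, and p-values were adjusted over these by Benjamini-Hochberg at 0.05. CPM use TMM-scaled library sizes, and fitted log2 fold changes a prior count of 0.125. The fit was tested on simulated data. Counts of replicates differed beyond sampling noise (chi-square per degree of freedom 125.4 or more), and none was merged. Each group held 1 female library, read from sex-linked counts. Alternatives were DESeq2 1.42.0, other scalings and filters, limma-trend on TPM (pseudocounts 0.1 and 1), fewer groups, the wild type tag, a replicate term, a sex term and each library left out; TPM rescaled over protein-coding genes and male libraries alone were added after seeing the data.

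The cartilage genes, lists and tests were chosen with earlier results of these data known. Named genes were all 10, Lmx1b, for each list the 2 with the smallest adjusted p in each direction over both days, Pthlh, Ptch1, Gli1, Hhip, Sox5 and Sox6, and the 3 genes nearest to Col2a1, Sox9 and Pth1r in pattern. Genes named outside that rule (Ibsp, Spp1, Alpl, Sp7, Matn1, Ucma, Epyc, Cytl1, Foxi1, and the overlapping Nt5dc1, Myl3 and Gm8546) were chosen after their values were seen. One gene that the rule names is not reported here.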

Additional observations from a re-analysis of the deposited data

How the results depend on the processing

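Over the 3 genotype comparisons no cartilage gene that was called changed sign under any alternative that could be fitted; Sox9 and Comp, which were not called, did. The counts of cartilage genes called were 6 at 12 dpa, 5 at 14 dpa and 8 for the average of the days. With the tagged library placed in the wild type, these counts, that of the change between days in mutants and that of the cartilage lists (47) were all 0, with log2 changes of 6.38 against 6.44 for Col10a1 between days in mutants, -3.33 against -3.66 for Col9a2 and -3.0 against -3.47 for Frzb. Male libraries alone gave 2 at 12 dpa and 3 at 14 dpa, and TPM rescaled over protein-coding genes gave 8 at 14 dpa. Leaving out each library in turn gave 4 to 8 at 12 dpa, 3 to 6 at 14 dpa, 7 to 8 for the average, 36 to 53 in the lists, and 0 to 1 for the change in mutants. Where fewer samples were fitted the test had fewer degrees of freedom; the cause of the other shifts was not tested. The interaction gave 2 with DESeq2 and 0 in edgeR. For the change in the wild type limma on log2(TPM + 1) gave 1 against 0. In the mutants the count was 1, and it was 2 with DESeq2 and 0 without a filter on low counts, with limma on log2(TPM + 1) and in a fit of those groups alone. Over all genes DESeq2 called 45 for the interaction, 46 between days in the wild type and 1332 in the mutants, against 0, 0 and 7 in edgeR. Upper quartile factors moved the median of all genes at 14 dpa to -0.11, and log2(TPM + 0.1) moved it to 0.26 over both days. A filter of 1 CPM in 2 libraries removed Ihh.

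Whether the replicate numbers pair the samples could not be settled. Deviations of same-numbered libraries correlated at -0.18 to 0.15, where the cutoff set for pairing was 0.1. Of 3 mutant libraries at 12 dpa, 1 correlated best with its own number at 14 dpa. Wild type groups hold 2 libraries each, whose deviations mirror each other, and the numbering of the 14 dpa pair is in doubt. The check therefore cannot exclude pairing. With a replicate block 6 cartilage genes were called at 12 dpa, 4 at 14 dpa and 6 for the average, Acan (adjusted p 0.0510) and Pth1r (0.0643) not among the last, and the block left 44 of the listed genes called. Low counts limit Ihh, Col9a1 and, in mutants, Col2a1 and Col10a1.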
